A study of Homo sapiens with 3 samples.

Results

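The ZNF genes of chromosome 19 were taken as every gene whose array symbol is ZNF followed by a number and whose probe lies on that chromosome in hg19. There were 258 of them among the 43316 genes on the array, read by 385 probes, and where a gene had more than 1 probe (99 genes) its brightest probe was used. In the current RefSeq annotation 239 of the 258 are protein coding, 9 are long noncoding RNAs, most of them antisense transcripts, 7 are transcribed pseudogenes, and 3 (ZNF788, ZNF807 and ZNF812) had no current match. Gene expression was measured in H1975 (NCI-H1975, a human lung cancer cell line with mutated EGFR that is sensitive to the EGFR inhibitor osimertinib) and in OR1 and OR2, osimertinib-resistant lines each derived from H1975 in its own selection, in which the osimertinib dose was raised in steps for 4 months to 2 μmol/L. Each line was hybridised to 1 single-colour Agilent array, all 3 on a single slide. The question was how these genes differ between the resistant lines and their parent, and where along the chromosome they do so.

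Most of these genes encode proteins with a row of C2H2 zinc fingers that read DNA, and many carry a KRAB box at the other end. The KRAB box binds TRIM28, which brings a histone methyltransferase and heterochromatin proteins to the bound site, and the best known targets of the family are retrotransposons. The genes arose by tandem duplication and lie in blocks of related copies, with the largest number on chromosome 19, and the block next to the centromere expanded in primates.

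With 1 array per line there is no replicate, so no p-value is given, and genes at a ratio of at least 2 or at most 0.5 to H1975 were counted. Values are scanner intensities scaled so that the 75th percentile of probes is equal on the 3 arrays. Intensities of a gene are listed in the order H1975, OR1, OR2. The scanner software's own error model gave a ratio a median technical SD of 0.205 (log2) for these genes in both lines, which leaves out differences between cultures. Of 58200 probes, 45.6% to 45.9% were well above background on each array and no spot was saturated. Each array read a pool of cells, so fewer cells with a transcript and less transcript per cell cannot be told apart. All 6 epithelial markers checked were well above background on the 3 arrays. KRT8 and KRT18 had log2 ratios from -0.31 to 0.16, whereas EPCAM (18338, 678 and 1330) and CDH1 (5451, 112 and 436) were much lower in the OR lines, KRT7 and KRT19 were lower as well, and the intensities summed over the list were 377196, 162909 and 161847. Among markers of other cell types, 1 to 3 of 5 fibroblast genes (summed 646, 751 and 94.9), 3 of 5 blood genes (562, 1349 and 2053, of which CD14 alone gave 255, 1084 and 1673) and 3 of 4 endothelial genes (89.0, 111 and 101) were above background, while DCN, PDGFRA, CD3E, HBB and KDR were not well above it on any array. The part of these shifts in the results below was not tested.

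Nearly all of the ZNF genes were measurable. Well above background were 243 in H1975, 250 in OR1 and 249 in OR2, with 242 on all 3 arrays, 9 on 1 or 2 arrays and, by their brightest probe, 7 on none (ZNF154, ZNF229, ZNF431, ZNF536, ZNF599, ZNF708 and ZNF835). ZNF181, ZNF233, ZNF540, ZNF649-AS1, ZNF780B and ZNF781 were above background in both OR lines and not in H1975, and by the brightest probe 0 genes were above it in H1975 alone. By its other probes ZNF154 was, with 18.6 and 27.6 in H1975 and neither OR line above background. ZNF554 was above background in OR2 alone, ZNF826P in OR1 alone, and ZNF350-AS1 in H1975 and OR1.

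As compared to H1975, 22 of the 251 measurable ZNF genes (8.76%) were at least 2-fold higher in OR1, beside 8.95% of the 22418 measurable genes, and 20 (7.97%) in OR2, beside 7.47%. These shares lie close to those of all genes. Few were lower. In OR1, 5 genes (1.99%) were at 0.5-fold or less, beside 9.34% of all genes, and in OR2, 6 genes (2.39%), beside 8.41%. In both lines together 14 were higher (5.58%, beside 5.09%) and 3 lower (1.2%, beside 6.32%). Both ratios share the H1975 array, so an error on that array enters both. The ZNF genes of other chromosomes had fewer increases (4.72% of 254 in OR1 and 4.33% in OR2) and more decreases (7.09% and 3.94%), and the other genes of chromosome 19 had more of each (14.5% of 1191 higher and 6.3% lower in OR1, 10.3% and 7.14% in OR2).

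The split between higher and lower genes depended on how the arrays were scaled. Setting the arrays level on the 7 spike-in controls moved the median of all genes in OR1 by -0.60 (log2) and turned the split of 22 higher and 5 lower into 4 and 35, while in OR2 it gave 25 and 5. With no scaling the split in OR1 was 13 and 9, which goes with a shift of -0.19 in the median of all genes. Normexp background correction, which draws dim probes toward a ratio of 1, left 5 and 3 in OR1 and 6 and 3 in OR2. Changes are therefore given below beside the median of all genes, which was 0.03 in OR1 and -0.05 in OR2. Calls over all genes were not counted under these other settings, so the counts show only how the ZNF calls move.

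The ratios of the ZNF genes differed along the chromosome. Over the 242 measured on all 3 arrays the median log2 ratio was 0.12 in OR1 and 0.13 in OR2. For the 48 up to 14.8 Mb the medians were 0.81 and 0.74, with 42 and 44 genes above 0. The 31 from 19.8 to 24.3 Mb had medians of 0.09 and -0.05. The 61 from 31.0 to 50.6 Mb were again higher in most cases, with medians of 0.53 and 0.50 and 51 genes above 0 in each line. The 102 from 52.1 Mb to the end of the long arm had medians of -0.17 and -0.20, and 33 and 35 of them were above 0. Of the 14 genes at least 2-fold higher in both lines, 9 were among the 49 ZNF genes up to 14.8 Mb, dim ones included. From 52.1 Mb on it was 0 of 106. The share higher in both lines was 5.09% over all genes and 7.64% over the other genes of chromosome 19.

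**Figure D1:**
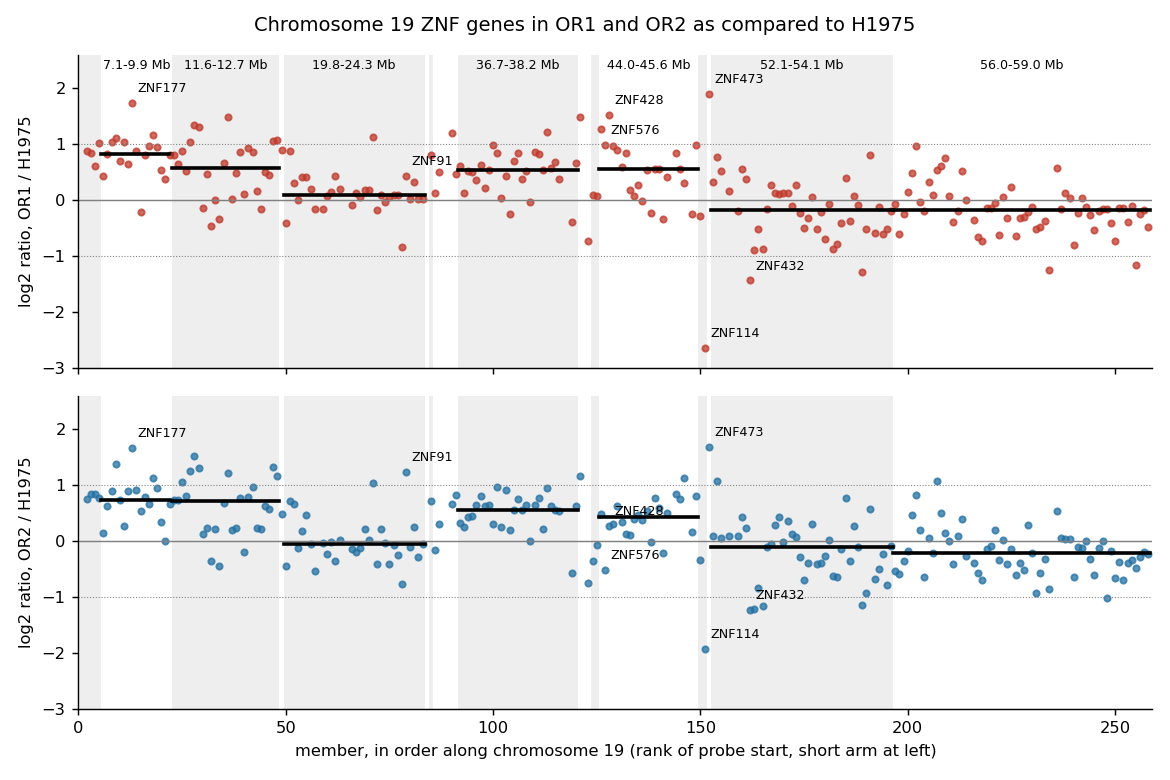
Log2 ratio of OR1 (top) and OR2 (bottom) to H1975 for the 242 ZNF genes of chromosome 19 measured on all 3 arrays, ordered by probe start. Each point is 1 gene, shading separates the 16 clusters, black bars are medians of the 7 clusters with at least 17 genes, and dotted lines mark ratios of 2 and 0.5. The bars lie above 0 at 7.1-9.9, 11.6-12.7, 36.7-38.2 and 44.0-45.6 Mb and below 0 from 52.1 Mb on in both lines, except that spike-in scaling lowers every point in OR1 by 0.60 and then puts the bars at 11.6, 36.7 and 44.0 Mb at -0.025, -0.061 and -0.048.

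Where neighbouring ZNF genes lay more than 1 Mb apart a new cluster was begun, which gave 16 clusters, 7 of them with at least 17 genes and 236 genes in all. Relative to the median of all genes, the medians in OR1 and OR2 were 0.79 and 0.78 for the cluster at 7.1 to 9.9 Mb (17 genes), 0.54 and 0.76 at 11.6 to 12.7 Mb (26 genes), 0.51 and 0.61 at 36.7 to 38.2 Mb (27 genes) and 0.52 and 0.49 at 44.0 to 45.6 Mb (22 genes). They were -0.21 and -0.06 at 52.1 to 54.1 Mb (42 genes) and -0.21 and -0.16 at 56.0 to 59.0 Mb (60 genes). These 6 clusters kept the sign of this relative median in both lines over 14 settings of the processing, the main one included. The cluster at 19.8 to 24.3 Mb (31 genes, 0.06 and 0.00) ranged from -0.06 to 0.04 in OR2. Median, spike-in or no scaling shifts a whole array by a constant, which cancels in the relative median, so these settings could not test its sign. Only settings that treat probes or genes differently could have changed it, and among them the deposited values nearly repeat quantile normalization. Between OR1 and OR2 the cluster medians were close, from -0.11 at 11.6 to 12.7 Mb to 0.15 at 19.8 to 24.3 Mb.

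The genes that are not ZNF genes and lie between the members of a cluster gave a local comparison. In the cluster at 7.1 to 9.9 Mb the 43 other genes had medians of 0.36 in OR1 and 0.15 in OR2, below the 0.82 and 0.73 of the ZNF genes. The same order held at 11.6 to 12.7 Mb, with 0.34 and 0.33 for 11 other genes as compared to 0.58 and 0.71, and at 44.0 to 45.6 Mb, with 0.23 and 0.00 for 23 as compared to 0.55 and 0.44. At 36.7 to 38.2 Mb the 19 other genes had 0.55 and 0.39, close to the ZNF genes in OR1 (0.54) and below them in OR2 (0.56). In the clusters from 52.1 Mb on, the other genes had negative medians as well (-0.25 and -0.34 for 15 genes, -0.20 and -0.25 for 47 genes). Between 10 and 20 Mb, 239 other genes had medians of 0.72 and 0.53 and the 30 ZNF genes 0.58 and 0.67.

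**Figure D2:**
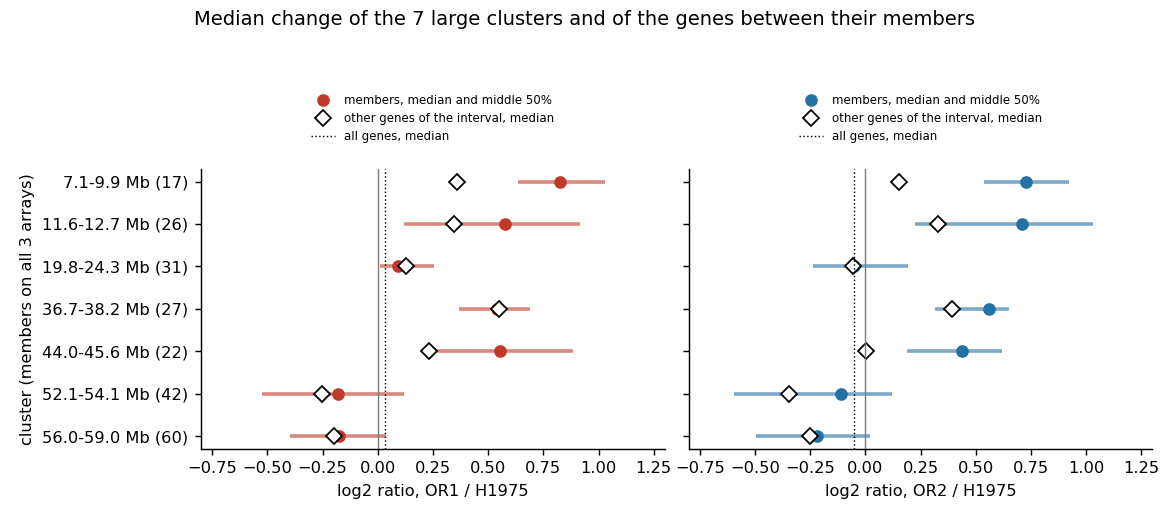
Median log2 ratio to H1975 in OR1 (left) and OR2 (right) for the ZNF genes of the 7 large clusters (filled circles, bars span the middle 50% of genes) and for the other genes between them (open diamonds), with the median of all genes as a dotted line. The circles lie farthest to the right of the diamonds at 7.1-9.9, 11.6-12.7 and 44.0-45.6 Mb in both lines. Spike-in scaling moves circles, diamonds and the dotted line in OR1 to the left together.

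In the cluster at 7.1 to 9.9 Mb, 16 of 17 genes had a ratio above 1 in each line. ZNF177, which is often silenced by promoter methylation in tumours, had scaled intensities of 83.0, 276 and 264, ratios of 3.33 and 3.18. ZNF561 gave 624, 1397 and 1364, and its second probe 345, 748 and 785. ZNF558, a KRAB zinc finger gene active in human neural progenitors, gave 410, 882 and 1067. In all 3 the OR lines lay together, well above H1975. ZNF317 gave 1141, 1850 and 1890, ratios of 1.62 and 1.66 that fall short of 2. ZNF560 was the exception in OR1, with 33.3, 28.8 and 48.3.

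The promoter of ZNF177 is shown because, after ZNF473, which has no promoter entry here, this gene had the largest increase in the less changed line among those above background on all arrays. It is the 250 bases before the start in RefSeq (chr19:9362763-9363012, GRCh38.p14, plus strand), 5′ to 3′, with capitals for CCGGAA or its reverse complement TTCCGG, the core of sites bound by ETS factors.
ZNF177: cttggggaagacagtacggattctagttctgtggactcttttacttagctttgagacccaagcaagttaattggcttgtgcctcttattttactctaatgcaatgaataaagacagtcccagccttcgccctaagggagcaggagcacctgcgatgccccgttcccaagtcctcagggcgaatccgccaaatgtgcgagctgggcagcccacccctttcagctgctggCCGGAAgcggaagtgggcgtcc
Of the 300 bases around the start this window leaves out the 50 after it. It holds 1 such core near its end, next to the start, and 10 CG pairs.

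At 11.6 to 12.7 Mb the median hid a wider spread, from -0.47 to 1.48 in OR1 and from -0.44 to 1.52 in OR2. Of the 26 genes here 6 were at least 2-fold higher in both lines. The share was 5.09% over all genes and 7.64% over the other genes of chromosome 19. ZNF439 gave 137, 338 and 338, with no difference between the resistant lines at this precision. ZNF788 gave 407, 1138 and 948, and ZNF491, close to background in H1975, 13.8, 35.1 and 39.6. The other 3 were ZNF441 (115, 235 and 273), ZNF490 (37.9, 79.1 and 94.5) and ZNF791 (259, 543 and 578). ZNF763 went the other way at 2659, 1922 and 2086, and ZNF878 had log2 ratios of -0.34 and -0.44.

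ZNF490 and ZNF791 start next to each other on opposite strands, and their 300-base promoter windows overlap by 206 bases. They are shown because the pair shares this stretch and both were past 2 in each line, with log2 ratios of 1.06 and 1.32 for ZNF490 and 1.07 and 1.16 for ZNF791. The windows lie at chr19:12610814-12611063 on the minus strand and chr19:12610670-12610919 on the plus strand of GRCh38.p14, capitals as before.
ZNF490: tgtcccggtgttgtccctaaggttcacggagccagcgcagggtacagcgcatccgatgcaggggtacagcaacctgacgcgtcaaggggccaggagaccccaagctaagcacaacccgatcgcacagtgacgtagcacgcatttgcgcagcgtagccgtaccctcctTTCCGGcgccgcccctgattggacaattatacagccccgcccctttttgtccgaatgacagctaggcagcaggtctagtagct
ZNF791: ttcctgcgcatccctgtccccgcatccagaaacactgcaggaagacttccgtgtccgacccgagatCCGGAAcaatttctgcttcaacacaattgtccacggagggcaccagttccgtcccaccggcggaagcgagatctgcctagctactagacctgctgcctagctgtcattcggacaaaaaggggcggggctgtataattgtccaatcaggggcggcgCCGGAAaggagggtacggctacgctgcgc
Among the ZNF genes with a promoter entry, 11 pairs overlapped in this way, 6 of them at 36.7 to 38.2 Mb. The second pair with 4 values close together was ZNF561 and its antisense RNA ZNF561-AS1, with 1.16 and 1.13 beside 0.95 and 0.95. Other pairs differed, such as ZNF829 with -0.26 and 0.19 beside ZNF568 with 0.69 and 0.56.

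The cluster at 19.8 to 24.3 Mb had the medians closest to that of all genes. ZNF254 gave 13116.5, 13301.3 and 12672.4 by the brightest of its 5 probes. ZNF714 gave 8560, 9849 and 8696, and ZNF85 gave 2668, 2958 and 2648. By these probes the ratios lay from 0.97 to 1.15. The other ZNF254 probes had log2 ratios from -0.23 to 1.01 in OR1 and from -0.45 to 0.30 in OR2. The highest in OR1 was at 121, 244 and 124. The probes of this block were the least specific: 20 of the 258 ZNF genes had a 60-base probe sharing a run of at least 20 bases with the probe of another gene, and 15 of them lay here. The longest run, 34 bases, joined the probes of ZNF85 and ZNF253, and the first 30 bases of it are shown, since they fall in the repeated finger-coding sequence of the family.
ZNF85 and ZNF253: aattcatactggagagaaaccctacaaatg
Values of single genes in this block are therefore uncertain, and cross-hybridisation was not tested.

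Few genes of that block departed from 1. ZNF91, which represses SVA retrotransposons, gave 102, 138 and 241, log2 ratios of 0.43 and 1.24. Its second measurable probe gave 115, 159 and 170, which is short of 2 in OR2 (0.56) and brings OR1 and OR2 within 0.10 of each other. ZNF208 gave 17.5, 38.2 and 36.0, ratios of 2.19 and 2.06 close to background. ZNF730 was lower in both lines at 148, 82.4 and 86.5. ZNF93, which represses a family of LINE retrotransposons, gave 565, 754 and 640, ratios under 1.5.

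The promoters of this block also resemble each other. The last 60 bases before the start are shown for 7 named genes of the block with a RefSeq entry. They set similar promoter ends beside ratios that were lower in both lines for ZNF730 and higher for ZNF208, which is close to background. A link between these bases and the ratios was not tested. The positions in GRCh38.p14 are ZNF85 at chr19:20923191-20923250 (plus strand), ZNF43 at chr19:21836183-21836242 (minus strand), ZNF208 at chr19:22010944-22011003 (minus strand), ZNF91 at chr19:23395472-23395531 (minus strand), ZNF254 at chr19:24087127-24087186 (plus strand), ZNF730 at chr19:23116965-23117024 (plus strand), ZNF93 at chr19:19900886-19900945 (plus strand), capitals as before.
ZNF85: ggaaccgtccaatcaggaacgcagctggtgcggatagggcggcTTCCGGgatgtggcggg
ZNF43: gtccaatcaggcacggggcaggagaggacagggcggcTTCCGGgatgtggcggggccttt
ZNF208: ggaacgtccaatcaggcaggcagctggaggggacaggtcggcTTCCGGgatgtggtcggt
ZNF91: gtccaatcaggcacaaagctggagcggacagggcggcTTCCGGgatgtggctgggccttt
ZNF254: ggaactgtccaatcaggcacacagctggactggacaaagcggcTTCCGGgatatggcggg
ZNF730: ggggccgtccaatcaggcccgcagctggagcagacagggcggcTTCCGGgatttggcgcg
ZNF93: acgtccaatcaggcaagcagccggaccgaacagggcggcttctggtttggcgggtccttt
In 6 of the 7 TTCCGG opens a longer shared stretch, TTCCGGGATNTGG, which was read off these sequences. Beyond the 6 it was read from, it was present on either strand in 5 of the other 20 promoters of the block (25%), in 0 promoters of the other clusters and in 7 of 256 ZNF genes on other chromosomes (2.73%). With those 6 and these groups counted in, it was in 22 of 27305 promoters in all (0.0806%). ZNF93 lacks TTCCGG in this window.

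The core CCGGAA, searched on both strands of 300 bases, was in 56.2% of the 219 promoters matched to ZNF genes of chromosome 19, in 43% of 256 ZNF genes of other chromosomes and in 17.6% of all 27305 promoters. It was in 30.4% of 5586 other promoters with as many CG pairs as the middle range of the ZNF genes (15 to 26). GGGCGG, the letters of an Sp factor site, was in 65.8% as compared to 44.6% of all, but in 65.3% of the 5586 promoters of similar CG count. TATAAA was in 2.28% as compared to 12% of all and 5.66% of those 5586. The share with CCGGAA ran from 26.1% at 11.6 to 12.7 Mb, 33.3% at 36.7 to 38.2 Mb, 40% at 44.0 to 45.6 Mb and 46.7% at 7.1 to 9.9 Mb to 67.9% at 56.0 to 59.0 Mb, 76.5% at 52.1 to 54.1 Mb and 76.9% at 19.8 to 24.3 Mb. Among these 7 large clusters, the 4 with relative medians of 0.49 or more in both lines had the 4 lowest shares. Over all clusters, the 114 measured genes with the core had median log2 ratios of 0.02 and -0.02 in OR1 and OR2 and the 92 without it 0.50 and 0.33. Within the 7 large clusters the median in OR1 was higher with the core at 7.1 to 9.9 Mb (0.96 beside 0.81) and 11.6 to 12.7 Mb (0.63 beside 0.52), and lower in the other 5, most at 44.0 to 45.6 Mb (0.26 beside 0.72). In OR2 it was higher with the core at 7.1 to 9.9 Mb (0.92 beside 0.67) and 36.7 to 38.2 Mb (0.63 beside 0.54), and lower in the other 5. A match of letters is a description and was not tested for binding.

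At 36.7 to 38.2 Mb the genes moved by similar, small amounts, with the middle 50% of ratios between 0.37 and 0.69 (log2) in OR1 and 0.32 and 0.65 in OR2, and 24 and 26 of 27 above 0. ZNF382 and ZNF569, KRAB repressors, the first of them known to be silenced in tumours, gave 48.4, 74.8 and 84.6 and 505, 897 and 857. Among those 27, ZNF793-AS1 had the largest ratio in OR1, at 163, 378 and 312. ZNF607 was lower in both lines at 2144, 1632 and 1449. At 35.0 to 35.4 Mb ZNF181 gave 11.2 in H1975, which is not well above background, and 37.0 and 36.5 in the OR lines, at least 3.05-fold and at least 3.01-fold higher. At 40.5 Mb ZNF546 gave 27.6, 77.5 and 61.7 by its measurable probe. Next to it ZNF780B gave 5.93 in H1975, not well above background, 33.2 and 25.4, at least 2.73-fold and at least 2.10-fold higher, while its paralog ZNF780A was lower at 147, 87.9 and 86.9 by 1 probe and slightly higher at 15.4, 18.6 and 17.6 by another.

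Single genes stood apart on the long arm. ZNF114 (probe at chr19:48790154-48790213 in hg19) had the largest difference of all the ZNF genes, with 2091, 335 and 550, ratios of 0.16 and 0.26. The 20 nearest measured genes had medians of 0.30 and -0.08, and did not share its size. ZNF473 (chr19:50551363-50551422), whose protein takes part in processing histone pre-mRNAs, had the largest increase in the less changed line, from 15.3 in H1975 to 56.8 and 49.1, ratios of 3.71 and 3.20, and its 20 neighbours had medians of 0.12 and -0.25. Its intensity in H1975 is near the lowest one called above background there (12.1), and normexp correction reduced its log2 ratios of 1.89 and 1.68 to 0.63 and 0.47.

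**Figure D3:**
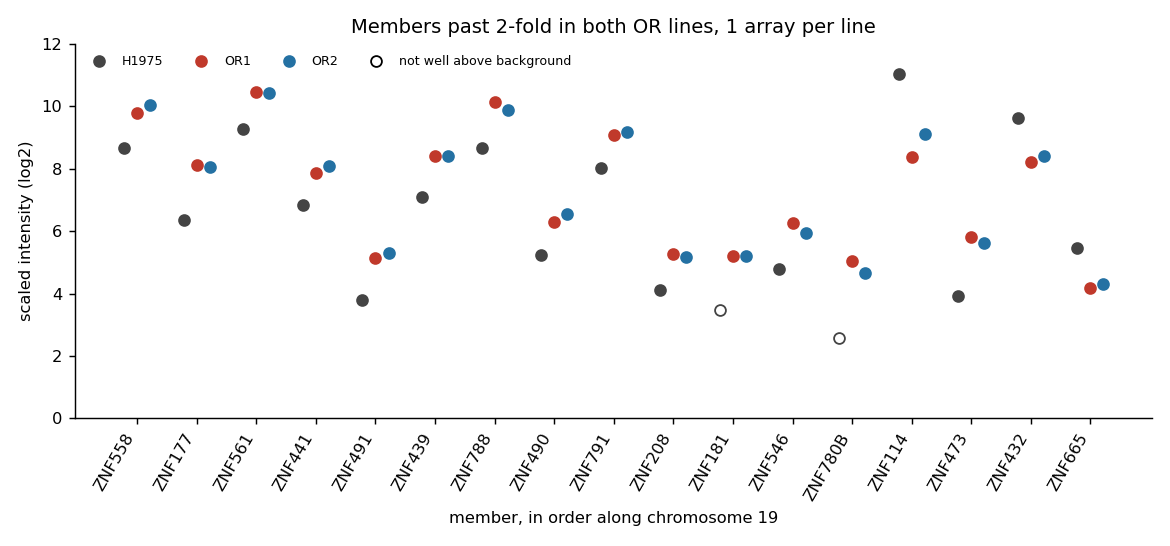
Scaled intensity on a log2 axis in H1975, OR1 and OR2 for the 17 ZNF genes at least 2-fold higher or lower in both OR lines, in order along the chromosome, 1 array per point. This choice of genes puts OR1 and OR2 on the same side of H1975, 14 times above it and 3 times below (ZNF114, ZNF432 and ZNF665, with OR1 and OR2 apart by 0.72 at ZNF114). Open circles are not well above background. Under spike-in scaling 4 genes are past 2-fold higher in both.

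From 52.1 Mb on, decreases prevailed but were mostly small. ZNF432 gave 800, 295 and 339, and ZNF665 gave 44.1, 18.1 and 19.9. Beside ZNF432, its neighbours ZNF841 (862, 465 and 372) and ZNF836 (301, 164 and 135) passed the ratio of 0.5 in OR2 alone, at 0.43 and 0.45, and had 0.54 in OR1. A second ZNF836 probe gave 102, 56.5 and 78.3, short of 0.5 in OR2 and with the lines in the other order. In the last cluster ZNF551 (481, 201 and 265) and ZNF132 (78.8, 35.1 and 56.2) were past 0.5 in OR1, and ZNF329 (573, 510 and 283) in OR2, where its other probe (469, 315 and 325) was not. Against this, ZNF577 (485, 822 and 1018) and ZNF582 (26.3, 38.2 and 55.4), a gene often methylated in tumours, were past 2 in OR2, with log2 ratios of 0.76 and 0.54 in OR1, but by 1 probe each. ZNF865 gave 168156, 185284 and 147953 by its brightest probe, but its other measurable probes were lower in both lines (324, 179 and 182, and 68.1, 35.2 and 41.5).

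The promoter of ZNF432 (chr19:52048839-52049088, GRCh38.p14, minus strand) is shown as that of a gene past 0.5 in both lines, with 1 CCGGAA a few bases before the start and 22 CG pairs.
ZNF432: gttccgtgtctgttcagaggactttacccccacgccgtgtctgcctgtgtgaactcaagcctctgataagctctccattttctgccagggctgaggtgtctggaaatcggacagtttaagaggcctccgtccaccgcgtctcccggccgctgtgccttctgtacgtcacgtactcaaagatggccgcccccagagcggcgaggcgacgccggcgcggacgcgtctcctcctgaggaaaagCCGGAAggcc
The promoter of ZNF439 (chr19:11848476-11848725, plus strand), which was past 2 in both lines, has 0 such cores and 10 CG pairs.
ZNF439: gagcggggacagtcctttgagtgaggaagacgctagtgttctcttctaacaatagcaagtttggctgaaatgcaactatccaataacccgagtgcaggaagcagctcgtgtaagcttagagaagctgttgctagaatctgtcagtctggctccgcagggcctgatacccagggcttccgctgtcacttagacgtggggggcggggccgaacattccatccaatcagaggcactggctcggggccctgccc
ZNF177, with 1 core, was past 2 as well.

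Between the resistant lines, 2 of 251 genes (0.797%) were at least 2-fold higher in OR1 than in OR2, beside 2.76% of all genes, and 0 were at 0.5-fold or less, beside 2.37%. Both were neighbours on the chromosome (probes at chr19:44103327-44103386 and chr19:44111636-44111695 in hg19). ZNF576 gave 492, 975 and 346, and ZNF428 gave 5056, 14554.5 and 6116. ZNF576 was therefore above H1975 in OR1 and below it in OR2, whereas ZNF428 was above it in both, and its second probe gave 66.6, 169 and 73.6. The ratios of OR1 to OR2 were 2.82 and 2.38, and under spike-in scaling 1.77 and 1.496, with the median of all genes then at -0.60 (log2).

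Most genes around this pair were also higher in OR1. Of the 20 nearest measured genes, 10 on each side from 43674208 to 44471466, 19 were higher in OR1 than in OR2. Their median log2 ratio was 0.75, as compared to 0.07 for all genes, and 7 were at least 2-fold higher. Over chromosome 19, the genes other than ZNF genes had a median of 0.21. Of those, 72.6% were higher in OR1, beside 56.7% of all genes, and 2.94% were at least 2-fold higher, beside 2.76%. The 20 nearest include XRCC1, a scaffold of DNA single-strand break repair, with 2078, 3736 and 1421, and IRGQ with 20.5, 84.8 and 20.7. PLAUR, the urokinase receptor, did not take part, with 1478, 1051 and 1031. The ZNF genes at the end of this window, ZNF283, ZNF404, ZNF45 and ZNF221, had log2 ratios of OR1 to OR2 of 0.67, 0.27, 0.26 and 0.73. The reverse side of the list was led by ZNF285 (18.7, 23.2 and 40.9), ZNF91 by its brightest probe and ZNF560, with OR1 to OR2 ratios of -0.82, -0.81 and -0.75 on the log2 scale. ZNF114, lower in both lines, followed with -0.72.

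**Figure D4:**
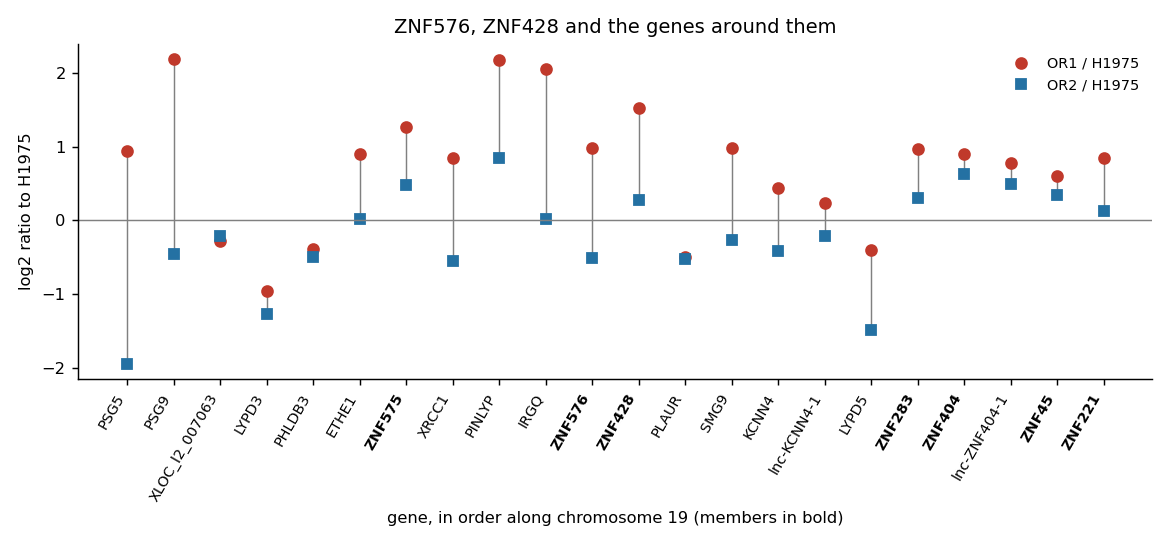
Log2 ratio to H1975 in OR1 (circles) and OR2 (squares) for ZNF576, ZNF428 and the nearest measured genes, in order along the chromosome and with ZNF genes in bold. OR1 lies above OR2 at ZNF576, at ZNF428 and at 19 of the 20 other genes at the scaling shown. The gaps are 1.25 at ZNF428, 2.03 at IRGQ and 1.39 at XRCC1. Spike-in scaling lowers every OR1 point by 0.60. Of the genes of chromosome 19 other than ZNF genes, 72.6% were higher in OR1 than in OR2.

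Both promoters of the pair are shown since the genes lie side by side and had the largest ratios of OR1 to OR2. The window of ZNF576 is chr19:43596142-43596391 on the plus strand and that of ZNF428 is chr19:43619630-43619879 on the minus strand of GRCh38.p14. Neither holds CCGGAA or TTCCGG, so no letter is in capitals, and they have 22 and 30 CG pairs.
ZNF576: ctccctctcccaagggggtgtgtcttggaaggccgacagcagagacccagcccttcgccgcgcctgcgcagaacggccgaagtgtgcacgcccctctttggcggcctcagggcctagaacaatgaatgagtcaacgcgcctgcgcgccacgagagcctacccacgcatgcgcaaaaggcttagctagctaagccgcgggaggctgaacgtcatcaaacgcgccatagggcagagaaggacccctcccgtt
ZNF428: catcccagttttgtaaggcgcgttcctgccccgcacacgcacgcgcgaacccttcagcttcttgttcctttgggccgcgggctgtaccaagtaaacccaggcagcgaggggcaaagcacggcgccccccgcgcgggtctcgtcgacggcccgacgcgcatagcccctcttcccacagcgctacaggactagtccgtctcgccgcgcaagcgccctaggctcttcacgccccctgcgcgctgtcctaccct

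For 20 ZNF genes of the chromosome with roles known from other work, all measurable on the 3 arrays, 0 were past 2 or 0.5 in OR1 and 2 were past 2 in OR2 (ZNF91 and ZNF582), beside 7.47% of all genes past 2 there, with medians of 0.14 and 0.04. Neither call held at the other measurable probe of the gene, which for ZNF582 gave 29.7, 31.9 and 43.3. ZNF274, which brings SETDB1 to the ends of other ZNF genes, gave 650, 488 and 573. ZNF417 and ZNF587, close paralogs that repress endogenous retroviruses of the HERV-K group, gave 194, 177 and 194 and 939, 797 and 876. Of the 6 genes named here as silenced or methylated in tumours, by the brightest probe of each, ZNF177, ZNF382, ZNF582 and ZNF671 (724, 1073 and 1051) were above H1975 in both lines, ZNF331 (480, 418 and 451) was below it in both, and ZNF471 gave 35.7, 31.0 and 38.1. ZNF177 is not among the 20 and was named for its increase, so it adds no support here. Of the 242 ZNF genes measured on all 3 arrays, 62% were above H1975 in OR1 and 58.3% in OR2. With spike-in scaling ZNF382, ZNF582 and ZNF671 would lie 0.60 lower in OR1, from log2 ratios of 0.63, 0.54 and 0.57.

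Of 24 names for the partners of KRAB zinc finger proteins and of DNA methylation, 23 were on the array (TASOR under its older name FAM208A), and 22 were above background on all 3. Their medians were -0.06 in OR1 and 0.03 in OR2, with 0 past 2 in either line, 2 past 0.5 in OR1 (beside 9.34% of all genes) and 3 in OR2 (beside 8.41%). TRIM28, the common corepressor, gave 15913, 8724 and 7771, log2 ratios of -0.87 and -1.03. DNMT3B, a de novo DNA methyltransferase, gave 651, 275 and 237. TET3, which oxidises methylcytosine, was above background in H1975 alone, so that its log2 ratios are at most -1.47 and -1.55. Its relatives TET1 (0.91 and 0.71) and TET2 (0.43 and 0.26) were higher in both lines, short of 2. So were SMARCAD1 (0.52 and 0.78), MORC2 (0.66 and 0.50), DAXX (0.56 and 0.54) and ATRX (0.36 and 0.72). The heterochromatin proteins CBX5 (-0.94 and -0.87), CBX3 (-0.86 and -0.53) and CBX1 (-0.45 and -0.50) were lower. So were CHD3 (-0.61 and -0.95), HDAC1 (-0.50 and -0.55), UHRF1 (-0.26 and -0.63) and DNMT3A (-0.47 and -0.14). HDAC2 (0.26 and 0.32) and CHD4 (0.13 and 0.22) were higher. SETDB1 (-0.11 and 0.14) and DNMT1 (0.11 and 0.03) differed from H1975 by less than the technical SD. The rest were MPHOSPH8 (-0.42 and 0.04), FAM208A (0.00 and 0.26) and PPHLN1 (0.17 and -0.17). TRIM28 lies beyond the last ZNF gene of the long arm, where the ZNF medians were negative too.

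Probes of the same gene did not always give the same ratio. Of 79 ZNF genes with at least 2 measurable probes, 66 in OR1 and 59 in OR2 had all probes above or all below 1, and the median range between them was 0.23 and 0.34 (log2). The widest was ZNF702P, a pseudogene, where 1 probe gave 165, 44.4 and 69.6 and another 90.3, 119 and 153. Of the genes measured on all 3 arrays and past 2, 5 in OR1 and 5 in OR2 had more than 1 measurable probe, and every probe was past 2 for 3 of them in OR1 (ZNF561, ZNF791 and ZNF428) and 2 in OR2 (ZNF561 and ZNF791). Of those past 0.5, 1 in OR1 (ZNF551) and 2 in OR2 (ZNF836 and ZNF329) had another measurable probe, and in 0 cases did every probe pass. In these calls no probe lay on the other side of 1. The cluster medians rest on 17 to 60 genes each.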

How the data were processed

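RNA of H1975, OR1 and OR2 was labelled with a single dye and hybridised to Agilent human gene expression arrays, 1 array per line on a single slide. The deposited scanner files hold the processed intensity of each spot, background-subtracted by the authors' Agilent Feature Extraction software (version 9.5.1.1 per the labels, 10.7.1.1 per the file headers). The deposited value table holds normalized intensity values, which differed from quantile-normalized scanner values by a median of 0.00134 (log2) over 58200 probes, and it was used as an alternative. Probe positions are hg19, and gene types, promoters and current names come from RefSeq (GRCh38.p14).

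Control spots and outlier flags were left out, spots of a probe were averaged, and log2 intensities were centred on the 75th percentile of each array, taken over probes that are not controls, and returned to a common level, so the printed scaled intensities give the ratios directly. The brightest probe stood for a gene. Levels were set side by side between genes only to pick probes and named genes by brightness and to sum marker lists, and no result rests on such a comparison. A gene was counted when well above background on at least 1 array. Where only the brighter line was above background, the dim side was set to the higher of its own signal and the lowest signal above background on that array, and the ratio is given as a bound. Named genes were the 8 with the largest increase and decrease in the less changed line, bounds up to 4 a side, the 4 extremes of OR1 over OR2 on each side, the brightest gene of clusters with at least 5 members, and 20 genes with known roles; other members past 2-fold or beside them were added after their values were seen. Members, lists and clusters were chosen with earlier results of these data known. The alternatives were other scalings, background corrections, filters, ratios and probe summaries, and limma with OR1 and OR2 as 2 samples. Finger counts were not analysed here. Calculations used Python 3.11.15, numpy 2.4.6, pandas 2.3.3, matplotlib 3.10.9, R 4.3.3 and limma 3.58.1. The number of arrays limits the precision.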

Additional observations from a re-analysis of the deposited data

Results flagged for a closer look

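ZNF576 had a log2 ratio to H1975 of 0.99 in OR1 and -0.51 in OR2, so the resistant lines moved in opposite directions. With 1 array per line the difference was not tested.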

How the results depend on the processing

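No paired analysis was possible because each line has 1 array. Of 1590 values recomputed, 1415 stayed within the technical error or within 1.5 times the count, 175 moved and 0 were scored as reversed. Only a named gene with a log2 ratio of at least 1 in size could be scored so, not a count, a median or a smaller ratio. Smaller ratios did change sign, such as that of ZNF780A in OR1, at -0.74 here and up to 0.27 in another setting. Among named genes 56 of the 129 that moved did so under spike-in scaling. Spike-in scaling, which lowers all genes in OR1 by 0.60, put the OR1 medians at -0.48 for all ZNF genes, 0.22 at 7.1, -0.025 at 11.6, -0.51 at 19.8, -0.061 at 36.7, -0.048 at 44.0, -0.78 at 52.1 and -0.78 at 56.0 Mb. Its counts were 4 higher and 35 lower in OR1, 4 higher and 5 lower in both lines, and 0 higher and 19 lower in OR1 than OR2. Without scaling they were 13 and 9 in OR1, 8 and 5 in both, and 2 lower in OR1 than OR2. Normexp correction gave 5 and 3 in OR1, 6 and 3 in OR2 and 4 higher in both, with medians of 0.60 at 7.1 Mb in OR1 and of 0.46 at 11.6 and 0.33 at 36.7 Mb in OR2. A ratio of 1.5 gave 69 and 20 in OR1, 69 and 25 in OR2, 52 and 15 in both, and 13 higher and 5 lower in OR1 than OR2. A ratio of 4 gave 0 and 1 in OR1, 0 and 0 in OR2, 0 and 0 in both, and 0 higher in OR1 than OR2. The median over probes and no background filter each gave 1 lower in OR1 than OR2. For the settings named so far, calls over all genes were not counted. These counts therefore do not set the ZNF genes apart from other genes. limma with OR1 and OR2 as 2 samples, which leaves 1 residual degree of freedom, called 0 of 251 higher and 0 lower at an adjusted p of 0.05, with 26 and 6 at an unadjusted p under 0.05, beside 208 and 373 of all 22418 genes adjusted and 2051 and 2126 unadjusted. GC trend removal and leaving out members with shared probe runs were added after seeing the data and moved no count or median past these limits. Why the spike-in and percentile scalings differ in OR1 was not tested. Dim genes such as ZNF491 and ZNF473 lie near background in H1975, and their ratios are the least firm.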
